A study of Mus musculus with 8 samples.

Results

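Narrow reproducible regions of H3K9 acetylation were defined at the ends of protein-coding genes in mouse cerebellum. Acetylation of histone H3 at lysine 9 (H3K9ac) had been profiled by chromatin immunoprecipitation and sequencing in C57BL/6 mice aged 9 weeks. A group of 4 libraries came from mice heterozygous for a knock-in allele labelled 266Q, and a group of 4 from wild type mice. The allele lengthens the glutamine tract of ataxin-7, a subunit of the SAGA acetyltransferase complex, and the series asks how H3K9ac differs in symptomatic animals. No label says that libraries came from separate animals, so spread between them may be technical. Cerebellum was not sorted, so fewer cells with the mark and less mark per cell cannot be told apart.

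Peaks of replicates 1 and 2 of both genotypes (41019 in all) were pooled, and peaks sharing 1 bp or more were joined into 16661 regions. Of these, 16618 lay on chromosomes 1 to 19 or X, 5465 had a peak in all 4 lists and 4503 of those lay within 1 kb of either end of a RefSeq protein-coding gene. The narrow regions are the 159 of these that were under 1200 bp wide after joining. They were thus chosen by presence in these 4 lists and by joined width, and both are given below as description only. The other 4344 gene-end regions are called wider, and are also given as 3499 of 1200 to under 2400 bp and 845 of 2400 bp or more. Replicates 3 and 4 took no part in the choice. Their lists stand apart from the rest, with a median peak of 132 to 148 bp against 1065 to 1246 bp and 1266 to 5571 peaks against 7735 to 11409, so values from them are given per library.

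H3K9ac is laid down by acetyltransferases of the Gcn5 and PCAF family, which work within SAGA and the related ATAC complex, and it is removed by deacetylases. At an active gene it sits on the nucleosomes that flank the start site, most of all on the first ones inside the gene, while the start itself is kept free of nucleosomes. Promoters rich in CpG, which serve most broadly expressed genes, usually carry the mark over more than one nucleosome on each side, and genes of cell identity often carry it over longer domains.

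Most of the narrow regions lay over a start site, and 5 promoters are shown because they carry the points that follow. Of the 178 genes at these regions, 151 matched the RefSeq promoter table (GRCm38.p6, the assembly that mm10 names), and 124 of the 159 regions had the start of a protein-coding gene inside them. Each line gives the 120 bases before the start site, 5′ to 3′ on the gene's own strand, and capitals mark, on either strand, the motif named for that gene; other motifs were left in lower case. Rpn1, a subunit of the oligosaccharyltransferase of the endoplasmic reticulum, had the narrowest region and is shown without capitals (chr6:88084353-88084472, plus strand). Bloc1s4, a subunit of the lysosomal biogenesis complex BLOC-1, is shown for an ETS motif (chr5:36748680-36748799, minus strand), and Elovl5, a fatty acid elongase mutated in a human spinocerebellar ataxia, for the CCAAT box (chr9:77917245-77917364, plus strand). Tbca, a chaperone of tubulin folding, had the highest scores and is shown for the GC box (chr13:94788800-94788919, plus strand). Eif3f, a subunit of translation initiation factor 3, is shown for the letters TATAAA (chr7:108934295-108934414, plus strand).
Rpn1: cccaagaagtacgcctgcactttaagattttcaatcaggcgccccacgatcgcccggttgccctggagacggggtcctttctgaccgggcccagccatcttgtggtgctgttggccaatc
Bloc1s4: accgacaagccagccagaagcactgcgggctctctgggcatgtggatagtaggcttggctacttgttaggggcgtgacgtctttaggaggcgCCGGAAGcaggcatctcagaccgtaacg
Elovl5: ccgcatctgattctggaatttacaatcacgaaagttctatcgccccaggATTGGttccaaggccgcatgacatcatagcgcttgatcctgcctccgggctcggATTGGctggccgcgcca
Tbca: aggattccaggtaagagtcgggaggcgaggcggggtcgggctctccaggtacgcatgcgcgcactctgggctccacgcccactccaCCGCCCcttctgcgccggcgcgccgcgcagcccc
Eif3f: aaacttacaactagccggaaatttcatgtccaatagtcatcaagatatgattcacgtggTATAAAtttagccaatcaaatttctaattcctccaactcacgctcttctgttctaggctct

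The narrow regions formed the lower edge of a continuous range of widths. They were 738 to 1199 bp wide, with a median of 1126 bp, and made up 3.53% of the gene-end regions. Among the 962 regions of all 4 lists that lay away from gene ends, 54 (5.61%) were under 1200 bp. Just inside the limit were Cyb561 at 1198 bp, Elfn2 at 1199 bp and the region shared by Mroh8 and Rpn2 at 1199 bp. Just outside were Ica1 at 1200 bp and Fem1a and Samd10 at 1201 bp each. Mean score percentiles over the 4 lists overlapped across the limit, at 48.1, 13.2 and 58.05 inside and 63.5, 40.5 and 78.1 outside.

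The typical peak in each list was shorter than the joined region. The median peak at a narrow region was 933 bp in knock-in replicate 1 and 899 bp in knock-in replicate 2. It was 898 bp in wild type replicate 1 and 784 bp in wild type replicate 2, which had the shortest peaks of the 4. Single peaks ranged from 469 to 1187, 481 to 1195, 420 to 1142 and 419 to 1189 bp in these lists, so the lists overlapped over nearly their whole range. Every narrow region held exactly 1 peak per list, whereas 11.4% of wider regions held more than 1 peak in some list. That share was 3.20% in regions of 1200 to under 2400 bp and 45.1% in regions of 2400 bp or more. The limit on width leaves little room for a further peak of the same list, and its part in this difference was not tested.

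**Figure D1:**
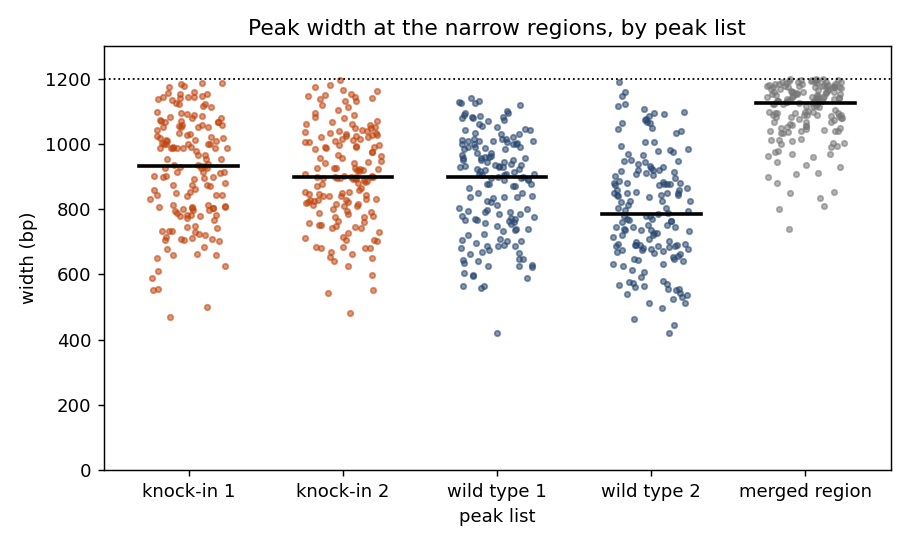
Width in bp of the peak of each list at the 159 narrow regions (points, 1 per region) and of the joined region, with medians as bars and the limit of 1200 bp as a dotted line. The medians of 933, 899, 898 and 784 bp lie below the joined median of 1126 bp, and wild type replicate 2 is lowest.

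The 5 narrowest regions differed in how far their 4 peaks varied. Rpn1 had a region of 738 bp on chromosome 6 (88084358 to 88085095), with peaks of 649, 649, 566 and 640 bp in knock-in replicates 1 and 2 and wild type replicates 1 and 2. Wild type replicate 1 had the shortest of these, and the other 3 lay within 9 bp of each other. Cnih4, an export receptor of the endoplasmic reticulum, followed at 799 bp (chromosome 1, 181150756 to 181151554), with peaks of 734, 759, 770 and 752 bp. Fbxw2, a substrate receptor of a ubiquitin ligase, had 809 bp, which it shared with Gm34653. Ppp6c, the catalytic subunit of protein phosphatase 6, had 835 bp, and Ppa2, a mitochondrial pyrophosphatase, had 848 bp. Peaks at Fbxw2 varied most among these 5, at 710 and 481 bp in knock-in against 803 and 463 bp for wild type, where replicate 2 was the shorter one in both genotypes.

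Peak widths at the narrow regions did not separate the genotypes more often than elsewhere. Both knock-in peaks were wider than both wild type peaks at 40 of 159 regions (25.2%), against 35.4% of all 5465 regions in the 4 lists. The reverse held at 7 regions (4.403%), against 4.68% of all. These 7 lay at Armc1, Cops5 with Cspp1, Cyb561, Elovl5, Nfatc2, Pi4k2a and Zfp52 with Zfp53. Because width was part of the choice, these counts are descriptions. Overlap between lists fell in the same range within and between genotypes. The median Jaccard index of the peaks at a narrow region was 0.797 for the knock-in pair and 0.725 for the wild type pair, and 0.742 to 0.781 for the 4 pairs of different genotype. The bases common to all 4 lists made up a median of 59.3% of a narrow region, or 643 bp, against 55.9% of a wider region.

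Relative to the start site, the narrow regions were set off into the gene. Over the 124 with a start inside, the upstream edge lay at a median of -309 bp (quartiles -452 and -204) and the downstream edge at 769 bp (652.5 and 880.5). The centre lay a median of 242 bp inside the gene and was downstream of the start in 108 of 124 (87.1%). Wider regions had their centres at 249 bp, downstream in 84.1%, with edges at -643 and 1134 bp. Both edges were thus nearer to the start in the narrow regions, which the limit on width brings about where centres agree. The median centre was within 7 bp of that of all wider regions. It was 240.5 bp inside the gene for regions of 1200 to under 2400 bp. For the broadest it was 329 bp, with 74.1% downstream. Rab3c, a GTPase of synaptic vesicles, was among the narrow regions centred before the start, with edges at -1074 and 112 bp. The region at Nkapd1 and Pih1d2 also lay mostly before the nearest start, that of Pih1d2, at -773 to 402 bp. At Wdr41, a partner of C9orf72, the region was centred on the start, with edges at -537 and 537 bp.

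**Figure D2:**
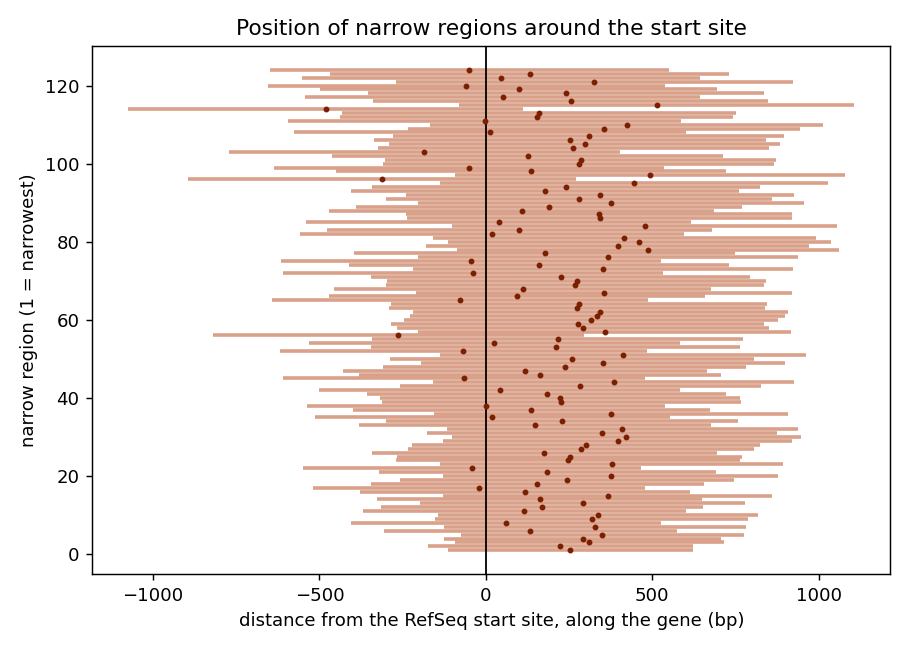
Span of the 124 narrow regions with a protein-coding start inside (lines, ordered by width) and their centres (dots), as distance in bp from the RefSeq start site in the direction of the gene. In 108 of 124 the centre lies to the right of the start, with a median of 242 bp.

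Few narrow regions held starts on both strands. Starts on both strands lay inside 13 of the 124 regions (10.5%), against 20.7% of the 3346 wider regions with a start. Starts of non-coding genes count here, and divergent pairs were not separated from other arrangements. Wider regions offer more bases in which a further start can fall, and the part of this in the difference was not tested. Ends of more than 1 protein-coding gene were within reach of 19 regions (11.9%), against 16.7% of wider regions, and the start of a non-coding gene lay in 8 (5.03%), against 11.3%. Of the shared regions with the highest scores, 1 lay at Myl12a, a regulatory light chain of myosin, and Myom1. Another lay at Kctd5 and Pdpk1, the kinase PDK1 that activates AKT. Arv1 with Ttc13, Nkapd1 with Pih1d2, Mroh8 with Rpn2 and Phf13 with Thap3 followed. Only the start of Myl12a, of Kctd5 and of Thap3 lay inside their regions, and the last 2 regions also touched a gene's end window. For Nkapd1 with Pih1d2, the start of Pih1d2 lay inside, and Nkapd1 had no promoter entry to place its start. A peak at a shared region cannot be assigned to 1 gene. The regions of Gm3435 with Gm3448 and of Zfp52 with Zfp53 lie at genes of multicopy families, whose reads are uncertain. Hairpins of Mir5132 and Mir718 lay in the region of Irak1 and that of Mir6392 in the region of Pnpla3.

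Few narrow regions had a close neighbour. The median distance to the next region of any of the 4 lists was 31794 bp, against 28050 bp for wider regions. It was 29891 bp for regions of 1200 to under 2400 bp and 18546 bp for regions of 2400 bp or more. Only 5 had a neighbour within 1000 bp (3.14%, against 5.99%), namely Efhd2 at 139 bp, the region of Cramp1l and Ift140 at 150 bp, Tle3 at 456 bp, Bcorl1 at 720 bp and that of Cops5 and Cspp1 at 955 bp. These genes were named because so few met the condition. The share with a neighbour within 1000 bp was 4.37% in regions of 1200 to under 2400 bp and 12.7% in regions of 2400 bp or more. With only 5 such narrow regions, their share cannot be set apart from that of regions of 1200 to under 2400 bp.

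In 3 of the 133 regions whose gene ends could all be oriented, only the end window of a gene was touched and no start (2.26%, against 0.912% of 3400 wider regions). They lay at Grin2c, the GluN2C subunit of NMDA receptors found in mature granule cells, at Slc9b2, a sodium and proton exchanger, and at Ppa2. The region of Grin2c (chromosome 11, 115249659 to 115250853) lay inside that gene, within 1 kb of its end at 115249169, and its peaks had score percentiles of 22.4 and 8.13 in knock-in against 27.4 and 20.1 for wild type. At Slc9b2 (chromosome 3, 135342616 to 135343522) they were 21.3 and 32.4 against 35.8 and 5.97. The region of Ppa2 (chromosome 3, 133378295 to 133379142) began just past the annotated end of the gene, at 133378235, with percentiles of 11.4 and 10.5 against 3.42 and 48.1. All but 1 of these 12 values were below 36, so these 3 end regions were weak in nearly every list. Grin2c and Ppa2 each also had a wider region at an end, and 8 genes in all had both kinds.

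Scores at narrow regions were lower than at wider ones. The deposited score was ranked within its own list, since its scale is not stated and lists differ in length. The median percentile at narrow regions was 48.7, 51.2, 46.6 and 35.0 in knock-in replicates 1 and 2 and wild type replicates 1 and 2, and at wider regions 75.45, 76.4, 75.95 and 65.5. Averaged over lists, narrow regions had a median percentile of 43.1 (quartiles 34.7 and 54.65), against 68.1 for regions of 1200 to under 2400 bp and 86.2 for the broadest. Width and percentile are both readouts of the same peaks, and across all 4503 gene-end regions Spearman's rho between them was 0.553. Within the narrow regions rho was 0.104 over 159 regions.

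**Figure D3:**
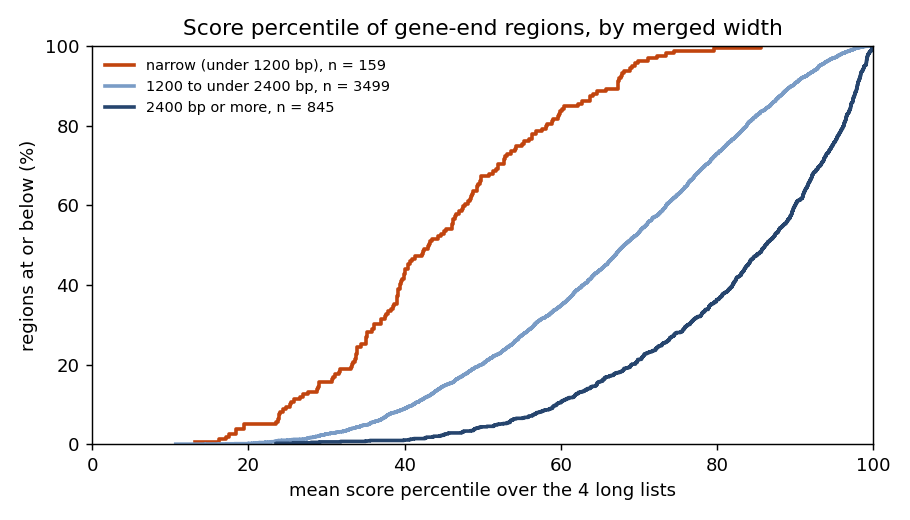
Cumulative share (%) of gene-end regions by mean score percentile over the 4 lists, for narrow regions (n = 159) and for 2 classes of wider regions (n = 3499 and 845). The curve of narrow regions lies to the left, with a median of 43.1 against 68.1 and 86.2.

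A minority of narrow regions combined a short span with a high score. In 20 of 159 (12.6%, against 60.8% of wider regions) the peak was at or above the 50th percentile of all 4 lists. Tbca had the highest mean percentile, 85.6, with 89.4 and 90.2 in knock-in against 89.5 and 73.5 for wild type (chromosome 13, 94788566 to 94789756). Wild type replicate 2 was the low one, and it also had the shortest Tbca peak, 691 bp against 1126 to 1155 bp in the others. Gtpbp1, a GTPase that acts on translation, had a mean of 79.7. Kansl3, a scaffold of the NSL acetyltransferase complex that acts on histone H4, had 74.5. Efhd2, a calcium-binding protein of neurons, had 73.5, Cnih4 72.3 and Cyria, a negative regulator of RAC signalling, 71.1. Cnih4 was both the second narrowest region and among these highest 6, with percentiles of 75.7 and 69.2 in knock-in against 86.95 and 57.4 in wild type. Among the 20 were also Chrna7, the alpha-7 nicotinic acetylcholine receptor (mean 67.7), Tmem106b, a lysosomal membrane protein (65.8), and Sgcb, beta-sarcoglycan (67.4).

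At the low end were Elfn2, a leucine-rich repeat protein of synapses (mean percentile 13.2), Rpn1 (16.2), Eapp, an E2F-binding protein (17.1), Bcorl1, a transcriptional corepressor (17.5), Ppa2 (18.4) and Rab3c (18.4). Their ranks varied between lists. Eapp was at 0.641 and 38.75 in knock-in against 4.295 and 24.7 in wild type, so replicates of 1 genotype differed as much as the genotypes. In all, 15 narrow regions had a mean percentile under 25.

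Promoters in narrow regions were CpG-rich, though less so than those in wider regions. The RefSeq promoters (250 bases before to 50 after a start) of the 124 narrow regions had a median GC content of 62.5% (SD over promoters 8.09), against 67.7% in 3346 promoters of wider regions and 56.3% in all 21263 promoter entries of protein-coding genes. They held a median of 22.5 CpG dinucleotides, against 29 and 13. The median ratio of observed to expected CpG was 0.811 (quartiles 0.713 and 0.918), against 0.871 (0.737 and 0.983) and 0.567. Quartiles of narrow and wider promoters overlapped. Only 3 narrow promoters had a ratio below 0.5 (2.42%, against 4.81% and 45.55%), those of Ntn3, a netrin axon guidance cue, Rpl11 and Cap1, an actin-cycling protein. The highest ratio, 1.43, was at Magohb, a core protein of the exon junction complex.

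The motif content differed in part from that of wider regions. Of 10 motifs searched on both strands, none containing another, the GC box GGGCGG bound by Sp1 was found in 85 of 124 narrow promoters (68.5%, exact 95% interval 59.6 to 76.6), against 79.2% of wider and 46.2% of all promoters. The CCAAT box, bound by NF-Y, was in 53 (42.7%, 33.9 to 51.9), against 31.3% and 38.2%. The ETS core CCGGAAG was in 28 (22.6%, 15.6 to 31.0), against 14.9% and 11.6%, and TATAAA in 10 (8.065%, 3.935 to 14.3), against 4.035% and 12.6%. For the first 3 of these motifs the share in all wider regions fell outside the interval of the narrow promoters, which covers counting error only. TATAAA was close to it, with a share in wider regions just above the lower bound. The width classes did not all follow this. The ETS core was in 16.2% of promoters in regions of 1200 to under 2400 bp, inside the interval. In regions of 2400 bp or more it was in 9.165%. The GC box was in 80% and 75.8% of these classes, the second inside its interval. TATAAA was in 3.912% and 4.583%, the first below its interval. The CCAAT box, at 31.5% and 30.3%, lay outside in both classes. The 10 promoters with TATAAA were those of Bbs4, Cited1, Crtap, Eif3f, Kifbp, Map10, Nfatc2, Psmd1, Sgcb and Slc2a1.

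For each of the other 6 motifs the share in wider regions fell inside the interval of the narrow promoters. CACGTG was in 18 narrow promoters (14.5%, 8.84 to 22.0), against 10.3% of wider and 7.835% of all. The YY1 motif AAGATGGC was in 9 (7.26%, against 4.87% and 3.05%), and the NRF1 motif GCATGCGC in 7 (5.65%, against 6.485% and 3.52%). The cyclic AMP response element TGACGTCA was in 6 (4.84%, against 3.77% and 2.23%), CTCGCGAG, bound by BANP, in 4 (3.23%, against 2.51% and 1.24%) and ACTACAAT of ZNF143 in 2 (1.61%, against 0.717% and 0.851%). In the printed promoters the GC box of Tbca began 34 bases before the start, the ETS core of Bloc1s4 28 bases and the TATAAA of Eif3f 61 bases. Elovl5 held 2 CCAAT boxes, both on the other strand. A match shows only that the letters are present.

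**Figure D4:**
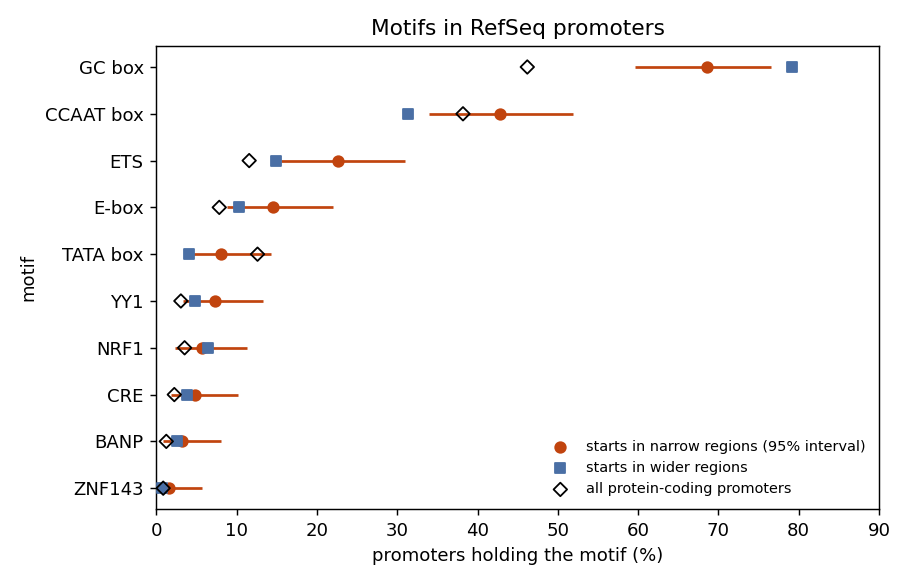
Share (%) of RefSeq promoters that hold each of 10 motifs, for starts in narrow regions (circles with exact 95% intervals, n = 124), starts in wider regions (squares, n = 3346) and all protein-coding promoter entries (diamonds, n = 21263). The GC box lies lower in narrow than in wider regions (68.5% against 79.2%), and the CCAAT box and the ETS core lie higher. In regions of 1200 to under 2400 bp alone the share with the ETS core was 16.2%, inside the interval of narrow regions.

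In the 4 libraries that took no part in the choice, narrow regions were found again less often than wider ones. Knock-in replicate 3 had a peak in 25 of 159 narrow regions (15.7%, exact 95% interval 10.4 to 22.3), against 45.4% of wider regions. In wild type replicate 3 the count was 13 (8.18%, 4.425 to 13.6), against 24.95%. Replicate 4 had a peak in 2 regions in each genotype (1.26%, 0.153 to 4.47), against 4.21% of wider regions in knock-in and 7.07% in wild type. Over the 4 libraries the share was 6.60 ± 6.90% (SD, n = 4) in narrow and 20.4 ± 19.0% (SD, n = 4) in wider regions. The difference of -13.8 percentage points had the same sign in 4 of 4 libraries, with a two-sided exact paired permutation p of 0.125, the smallest that 4 libraries can give. Counting only peaks centred in the middle 300 bp of each region, so that each region offered the same length, the difference was -6.185 points with the same p.

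Set beside wider regions of like score, the shares were closer, and their order differed between score bands. Among regions with a mean percentile of 50 to 75, knock-in replicate 3 had a peak in 18 of 50 narrow regions (36.0%) and in 30.6% of 1691 wider ones. Wild type replicate 3 had 8 (16%) against 12.4%, and replicate 4 had 1 (2.00%) in each genotype against 1.30% in knock-in and 1.95% in wild type. The mean difference was 2.45 points, higher in 4 of 4 libraries (exact paired permutation p = 0.125). From 25 to 50, knock-in replicate 3 had 5 of 92 narrow regions (5.43%) against 10.2% of 703 wider ones, and wild type replicate 3 had 3 (3.26%) against 2.42%. Replicate 4 had a peak in none of the 92 in either genotype, against 0.142% of wider regions in knock-in and 0.569% in wild type. There the mean difference was -1.17 points with an exact paired permutation p of 0.625. Counting only peaks centred in the middle 300 bp, knock-in replicate 4 had none of the 50 narrow regions from 50 to 75, against 0.828% of wider ones. The other libraries stayed higher in narrow regions by that count. These bands were set after seeing the data. Those below 25 and from 75 up held 15 and 2 narrow regions and were not compared.

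**Figure D5:**
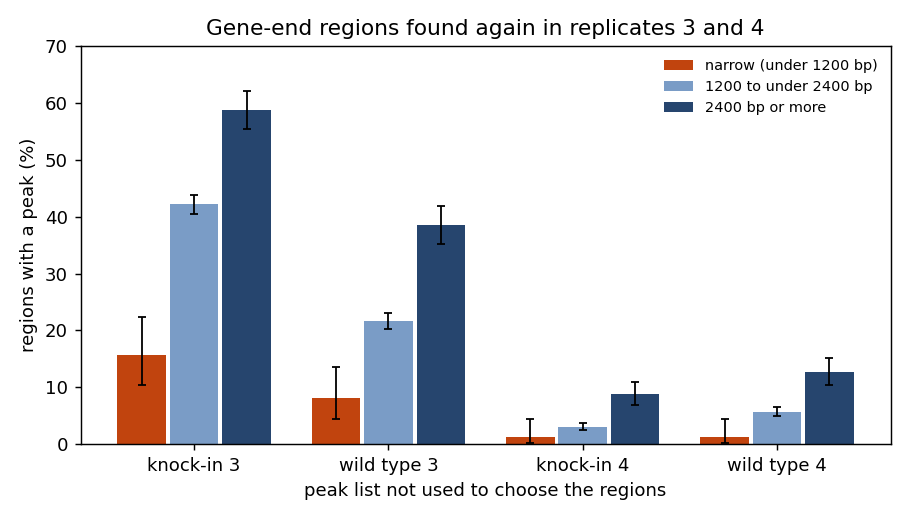
Share (%) of gene-end regions with a peak in the 4 lists that were not used to choose them, for narrow regions (n = 159), regions of 1200 to under 2400 bp (n = 3499) and of 2400 bp or more (n = 845). Bars start at 0 and lines are exact 95% intervals. Narrow regions are lowest in each list, from 15.7% in knock-in replicate 3 to 1.26% in replicate 4 of both genotypes.

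The genotypes did not differ in how often narrow regions were found again beyond the spread between libraries. Mean shares were 8.49 ± 10.2% (SD, n = 2) over the knock-in libraries against 4.72 ± 4.89% (SD, n = 2) over wild type, a difference of 3.77 points. The two-sided exact permutation p was 1, and 2 libraries against 2 cannot give a p below 0.333. Replicate 3 of each genotype was high and replicate 4 low, so the groups overlapped. Without knock-in replicate 3 the difference was -3.46 points, and without wild type replicate 4 it was 0.314 points. Within replicate 3 the shares were 15.7% and 8.18%, and within replicate 4 both were 1.26%. In wider regions the shares were 24.8 ± 29.1% (SD, n = 2) and 16.01 ± 12.65% (SD, n = 2), also with an exact permutation p of 1. The knock-in list of replicate 3 held 5571 peaks and the wild type list 3249, and the part of list length in these shares was not tested.

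Of the 159 narrow regions, 123 had no peak in any list of replicates 3 and 4. Tbca was found in the most, with peaks in knock-in replicates 3 and 4 and wild type replicate 3, centred 140.5, 171.5 and 155 bp inside the gene. These 3 short peaks lay within 31 bp of each other. Cnih4 and Uba6, a ubiquitin-activating enzyme, had a peak in replicate 3 of both genotypes. At Cnih4 these were centred 169 bp inside the gene in knock-in and 382 bp in wild type. Over all narrow regions with an oriented start, the short peaks of replicate 3 were centred a median of 167.5 bp inside the gene in knock-in (16 of 21 downstream of the start) and 164.5 bp in wild type (8 of 10).

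A peak in replicate 3 of knock-in and not of wild type was seen at 22 narrow regions (13.8%), against 25.1% of all 5465 regions of the 4 lists. Those with the highest scores were Gtpbp1, Kansl3, Elovl5, Ctnnal1, an alpha-catenin relative, and Pi4k2a, a phosphatidylinositol kinase of endosomes. Prmt3, an arginine methyltransferase, was also among the 22. The reverse was seen at 10 regions (6.29%), against 6.2% of all. Myl12a with Myom1, Zc3hav1l, Nkapd1 with Pih1d2, Epb41l2 and Kifbp led these by score. No narrow region had a peak in both libraries of knock-in and in neither of wild type, against 0.805% of all regions. Ppa2 and Zc3hav1l had the reverse pattern (1.26%, against 0.311% of all). At Zc3hav1l the peaks of wild type replicates 3 and 4 were centred 110.5 and 232.5 bp inside the gene. With 2 libraries against 2 no single region can pass a test, so these are patterns of presence only.

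By gene list, narrow regions were scattered thinly. Of 21887 protein-coding genes, 178 (0.813%) had a narrow region and 5012 (22.9%) a wider one. Over the 24 lists together, 20 of 2960 genes (0.676%) had a narrow region. That share is lowered by 1459 olfactory and vomeronasal receptors, listed because they should lack the mark, none of which had one. It is therefore not a like comparison with the 0.813% over all genes. Median gene length was 28616 bp for genes with a narrow region, 30447 bp for those with a wider one and 17169 bp for all.

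Lists of cerebellar cell types, which also serve to check the tissue label, held 2 genes with a narrow region, too few to set them apart from the 0.813% over all genes. Granule cell markers had a wider region at 19 of 24 genes and a narrow one at 1, Grin2c, where it lay near the gene's end. Purkinje cell markers had wider regions at 8 of 27 genes and narrow regions at 0. Markers of inhibitory interneurons (2 of 15 wider), of astrocytes and Bergmann glia (1 of 18), of oligodendrocytes (1 of 20) and of microglia (0 of 17) had no narrow region either. Of 13 vascular markers, Slc2a1, the glucose transporter GLUT1, which many cells express, had a narrow region, and none had a wider one. Its peaks had percentiles of 57.1 and 52.8 in knock-in against 32.9 and 68.2 for wild type. Immediate early genes had 0 narrow and 13 of 22 wider, and SAGA and ATAC subunits 0 narrow and 21 of 34 wider. Voltage-gated channels and transmitter receptors had 1 narrow, Grin2c, and 56 of 185 wider, and olfactory and vomeronasal receptors, taken as a list that should lack the mark here, had none of 1459.

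Among lists of general cell machinery, 3 had more than 1 gene with a narrow region. Aminoacyl-tRNA synthetases, which charge tRNA, had 2 of 37 (5.41%), Dars for aspartate and Mars1 for methionine. Ciliary and centrosomal proteins had 4 of 62 (6.45%), namely Cep120, Cep85, Ift140 and Bbs4, and 16 had a wider region. Ift140 counts through a region shared with Cramp1l, which held the start of Cramp1l and not that of Ift140. Cep120 was the strongest of the 4, with percentiles of 72.3 and 69.8 in knock-in against 35.1 and 73.8 for wild type, and with a peak in knock-in replicate 3. At Bbs4, a BBSome subunit, they were 7.54 and 48.1 against 54.6 and 5.79, so neither genotype was uniformly high. Zinc finger proteins of the Zfp, Zkscan, Zscan and Zbtb series had 6 of 461 (1.30%), with Zfp641 (mean percentile 44.3) the highest. Zfp52 and Zfp53 are counted separately there but share 1 region, with no protein-coding start inside it.

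Each of the other machinery lists given here had at most 1. Rpl11 of 84 cytosolic ribosomal proteins had percentiles of 42.7 and 64.2 in knock-in and 38.8 and 16.96 for wild type. Mrps15 stood for 78 mitochondrial ribosomal proteins, Uqcrfs1, the Rieske iron-sulfur protein of complex III, for 102 genes of oxidative phosphorylation, and Psmd1 for 39 proteasome subunits. Snrpd1, a core protein of spliceosomal snRNPs, was the 1 of 49 spliceosomal genes. Subunits of RNA polymerases (8 of 28 wider), Mediator (9 of 30), trafficking tethers (26 of 66) and ubiquitin-conjugating enzymes (23 of 35) had wider regions and 0 narrow ones. Counts this small do not rank the lists, and no set test was made.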

How the data were processed

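Each deposited file was a list of H3K9ac peaks of 1 cerebellar library, with the authors' score per peak. Reads were aligned with Bowtie2 to mm10, per the submitters' processing notes, and peaks were called by MACS in Galaxy, per the file headers, with 1 list for each library. For MACS, the version, the settings and any input control were not stated in the labels or headers. The lists hold no read counts, so depth is unknown. Exact Clopper-Pearson 95% intervals for shares of regions cover counting error only.

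Negative starts (14 among the pooled peaks) were moved to 0. Joining, choice of regions and permutation tests were written in Python 3.11.15 with pandas 2.3.3 and scipy 1.17.1 and were tested on simulated data. A start site is 250 bases into a RefSeq promoter entry. Percentiles give the share of a list's peaks with the same or a lower score, and the highest peak stands for a region. Regions, lists and motifs were chosen with earlier results of these data known. Genes were named by width, percentile, peaks in replicates 3 and 4, sharing and list membership. The result of 1 list is not reported here. Single genes outside that rule were chosen after their values were seen. Alternatives changed the width limit, window, joining, score threshold, list length and libraries.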

Additional observations from a re-analysis of the deposited data

How the results depend on the processing

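The number of narrow regions depends on the width limit, being 21 with a limit of 1000 bp and 991 with 1500 bp. It was 97 with the lowest-scoring peaks of each list left out and 93 with lists of equal length, and 146 to 165 under the other window, joining and coverage settings. Choosing from 3 lists gave 341 to 379 regions (379 and 341 without knock-in replicates 1 and 2, 354 and 376 without wild type replicates 1 and 2) (fewer peaks are then joined and a peak is required in fewer lists, and these were not separated). The share of listed genes with a narrow region, olfactory and vomeronasal receptors included, was 0.0676% and 3.85% at limits of 1000 and 1500 bp. The deficit of narrow against wider regions in replicates 3 and 4 kept its sign under all alternatives listed in advance, from -17.4 to -8.51 points when a library was left out, and turned to 2.45 points in the score band of 50 to 75, which was added after seeing the data. The difference between genotypes ranged from -3.46 to 11.0 points when a library was left out, with the sign reversed without knock-in replicate 3, and was 0 at the 1000 bp limit. With the replicate number as a replicate block it was 3.77 points (exact paired permutation p = 1). That p was fixed in advance of replicate 3, since the shares of replicate 4 were equal in both genotypes, and it decides nothing. The labels do not say that numbers pair libraries. No setting gave an exact p under the threshold, which the number of libraries does not allow. Depth is unknown, and its part in the shorter lists of replicates 3 and 4 was not tested.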
